A study of Mus musculus with 45 samples.

Results

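Zscan4c, Zscan4d, Zscan4f, Tcstv1, Tcstv3 and Zfp352 are 6 genes that mouse embryonic stem cells (ESCs) use in the two-cell-like state. They were looked up by symbol in 2 tables of RNA-seq values, 1 for each of 2 deletions of the long noncoding RNA gene 5430416N02Rik. Both tables list 33924 genes, and each has a row for 4 of the 6 symbols. All 4 varied between samples, as did 21979 genes in the first table (ΔPG) and 22048 in the second (ΔG). No row carried the symbol Tcstv1 or Tcstv3, and these genes were not analysed here.

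The samples were D3 ESCs of strain 129. In ΔPG cells a PGK-puro cassette stands in place of both promoter and gene body of 5430416N02Rik, and in ΔG cells a GFP-IRES-Puro cassette stands in place of the gene body alone. Each line was sampled as heterozygous (het) and homozygous (hom) cells, under solvent (DMSO; ES) or after 48 h with 2 µM retinoic acid (RA), with 3 biological replicates per group and 24 samples in all. All groups therefore carry a deletion on at least 1 allele and a puromycin cassette, the het cells are the controls, and the 2 tables hold no wild-type sample. The lines were derived as clones, and the labels give the genotype and no clone, so that clone and genotype cannot be told apart.

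The two-cell-like state is a rare and passing condition of cultured ESCs, in which a few cells express genes that the embryo switches on at its two-cell stage. The transcription factor Dux switches on many of these genes, among them the Zscan4 genes and Zfp352. Zscan4 proteins carry a SCAN domain and zinc fingers and are known for their role in telomere lengthening and genome stability in ESCs, and retinoic acid is known to raise the share of Zscan4-positive cells. Zfp352 encodes a zinc finger protein, and the Tcstv genes encode short proteins expressed at the two-cell stage.

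The Zscan4 genes lie in a cluster, at a distance from each other, and their copies are so alike that they share many stretches of read length. On NCBIM37, 6 Zscan4 genes with a row in the tables span 618.4 kb of chromosome 7 (11486098 to 12104460). Zscan4c (ENSMUSG00000054272.4) lies at chr7:11591071-11595896 on the plus strand, Zscan4d (ENSMUSG00000090714.1) at chr7:11746992-11751497 on the minus strand, and Zscan4f (ENSMUSG00000070828.3) at chr7:11983264-11988090 on the plus strand. Zfp352 (ENSMUSG00000070902.4) lies apart from them at chr4:89885511-89892393 on the plus strand. All 4 are annotated as protein coding, and each value stands for all exons of a gene. Stretches of 100 bases (the read length) were taken from the annotated protein-coding transcripts of each gene. Of these, 84.9% in Zscan4f, 65.0% in Zscan4c and 26.5% in Zscan4d also occur in such transcripts of another gene. The other genes were Zscan4 genes in each case. In Zfp352 the share was 0.6%, and the partner was Zfp353. No other transcripts were searched, so each share is a lower limit. The Zscan4c and Zscan4f values are therefore uncertain as values of single genes, and Zscan4d is better separated. The 3 cannot be taken as independent of each other. How the paired reads were placed was not examined.

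**Figure D1:**
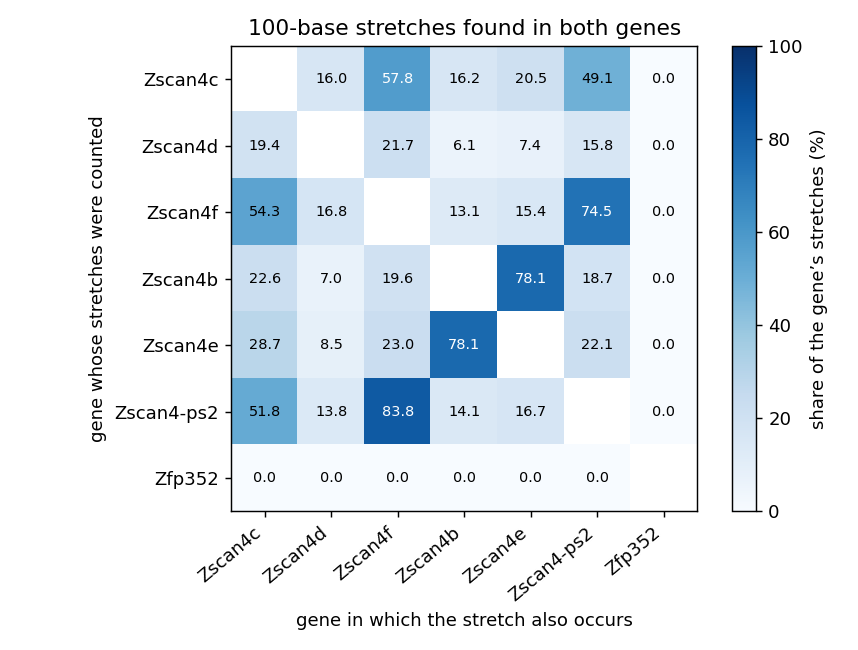
Share of the distinct 100-base stretches in the annotated protein-coding transcripts of 1 gene (rows) that also occur in those of another gene (columns), in percent, for the 6 Zscan4 genes with a row and Zfp352. Zscan4f shares 74.5% of its stretches with Zscan4-ps2 and 54.3% with Zscan4c, Zscan4d shares at most 21.7% with any single gene, and Zfp352 shares none with a Zscan4 gene.

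The bases before the start of these genes show the same relation, and are printed because the differences of the Zscan4 genes had the same sign in each comparison of genotypes and of treatments below. The sequences come from RefSeq on GRCm38.p6 (strain C57BL/6J, not the strain of these cells), which had an entry for 4 of the 6 symbols. Each is the 250 bases before the start of the gene, read on its own strand. Capitals in the Zscan4 sequences mark TGACCT, which is the retinoic acid receptor half-site AGGTCA on the other strand, and the TATA box TATAAA. Capitals in Zfp352 mark GACAACACAC, the word of 10 bases found most often in that promoter.
Zscan4f, chr7:11397665-11397914, plus strand: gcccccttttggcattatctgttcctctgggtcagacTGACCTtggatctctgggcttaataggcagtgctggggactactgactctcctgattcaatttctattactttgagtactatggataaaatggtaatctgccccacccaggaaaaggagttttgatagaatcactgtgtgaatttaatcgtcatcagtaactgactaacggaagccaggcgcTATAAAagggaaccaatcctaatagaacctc
Zscan4d, chr7:11166149-11166398, minus strand: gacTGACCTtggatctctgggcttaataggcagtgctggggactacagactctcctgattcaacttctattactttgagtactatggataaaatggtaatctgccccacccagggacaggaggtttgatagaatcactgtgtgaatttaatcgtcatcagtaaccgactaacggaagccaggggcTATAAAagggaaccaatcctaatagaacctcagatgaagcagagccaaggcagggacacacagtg
Zfp352, chr4:90218570-90218819, plus strand: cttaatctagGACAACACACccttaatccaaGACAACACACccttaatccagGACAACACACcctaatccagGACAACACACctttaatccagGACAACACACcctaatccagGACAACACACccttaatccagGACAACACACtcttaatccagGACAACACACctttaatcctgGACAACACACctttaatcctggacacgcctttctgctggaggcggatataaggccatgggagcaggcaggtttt

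The Zscan4c promoter (chr7:11005495-11005744, plus strand) is nearly that of Zscan4f. Over the stretch that both 300-base windows cover (250 bases before the start and 50 after), 275 of 277 aligned positions were identical. Zscan4c and Zscan4d shared 281 of 289 positions (97.2%), and Zscan4d and Zscan4f 259 of 266 (97.4%). TATAAA stands 54, 65 and 31 bases before the start of Zscan4c, Zscan4d and Zscan4f, and the half-site 236, 247 and 213 bases before it. Searched on both strands of 32851 promoters of 300 bases, TATAAA was found in 13.62% and AGGTCA in 16.26%. The Dux core GATTNAATC (0.27% of all promoters), the Zscan4 site TGCACAC (4.4%) and the GC box GGGCGG (35.66%) have no match in the 4 windows, and no 2 matches overlap. Zfp352 has no match to any of the 5 motifs. Its GACAACACAC word stands there 9 times without overlap, and in 0.12% of all promoters the commonest word of 10 bases is found as often. A match or its absence describes these letters only.

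The values are regularized log (rlog) values of the authors, on the log2 scale. This transformation shrinks the values of a gene with few reads, so that differences of low genes are understated, and a level cannot be compared between genes since it is not per length. The 2 tables were normalized separately, and levels are compared within a table only. Over its 12 samples, each gene of the set had a mean above that of 49.4% (Zfp352, ΔPG) to 71.4% (Zscan4d, ΔG) of varying genes. The range over the same samples ran from 2.48 (Zfp352, ΔPG) to 4.40 (Zscan4d, ΔG) on the log2 scale, larger than that of 97.1% to 99.6% of varying genes. Since the values are not per length, the ranks of the means do not rank expression. The ranges span both ES and RA samples.

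The labels and the treatment could be checked on other genes. 5430416N02Rik lay between 3.80 and 4.62 in ΔPG het samples against 2.12 to 2.66 in ΔPG hom samples, and between 5.50 and 5.64 against 2.63 to 3.08 in ΔG. Of 14 pluripotent cell markers, 12 or 13 were called lower in RA in each of the 4 RA comparisons and none higher, and of 10 retinoic acid response genes 9 were called higher and 1 lower. Called means, here and below, an adjusted p (Benjamini-Hochberg) under 0.1 in limma and an absolute log2 difference over 0.5.

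In both lines the 4 genes were lowest in ES and highest in RA, and the 2 lines stood the opposite way round by genotype. In the ΔPG table, the group means of each gene increased in the order ES het, ES hom, RA het, RA hom. In the ΔG table the order was ES hom, ES het, RA hom, RA het. The samples of neighbouring groups in these orders overlapped only for Zfp352 in ES, in both tables. Since these are bulk samples, a larger share of cells in the two-cell-like state and more RNA in each such cell cannot be told apart.

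**Figure D2:**
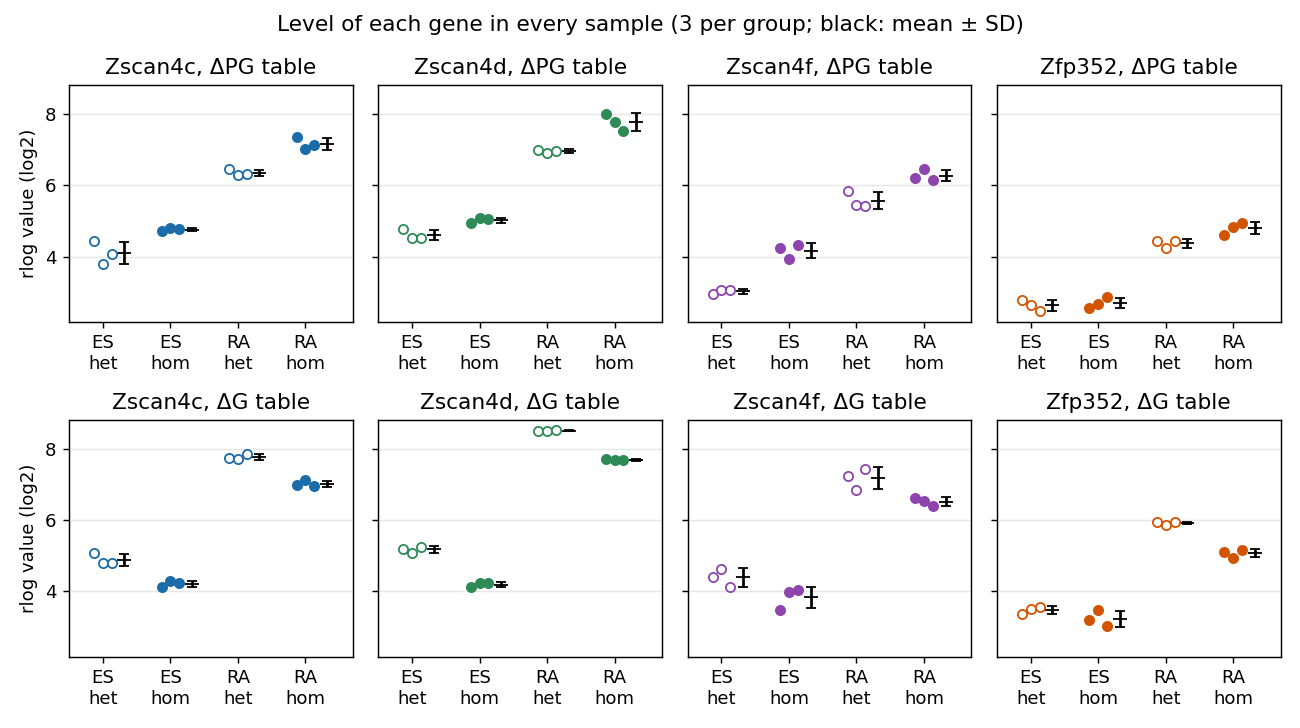
rlog value (log2) of Zscan4c, Zscan4d, Zscan4f and Zfp352 in each of the 12 ΔPG samples (top) and 12 ΔG samples (bottom), with open points for het and filled points for hom samples and black marks for the mean ± SD of 3. Hom samples sit above het samples in ΔPG and below them in ΔG, except for Zfp352 in ES, and the RA samples of every gene sit above all its ES samples.

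The first comparison sets hom against het ΔPG cells in ES, where clone and genotype cannot be told apart. Of the 4 genes, 2 were called higher in hom than in het ΔPG cells in ES, Zscan4f and Zscan4c, and none lower, against a background of 6.87% of all genes called higher and 6.29% called lower. For the 3 Zscan4 genes every hom sample lay above every het sample, as for 18.7% of all genes.

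Zscan4f, of which the largest share is found in its copies, was at 2.94, 3.07 and 3.06 in het and at 4.24, 3.92 and 4.32 in hom samples. The log2 difference was 1.14 ± 0.14 (SE, n = 3 per group, limma adjusted p = 0.000419). Zscan4c was at 4.43, 3.80 and 4.08 in het and at 4.71, 4.80 and 4.77 in hom samples, so that het replicate 2 was the lowest and the hom samples lay close together. Its difference was 0.65 ± 0.16 (adjusted p = 0.0154, limma). Zscan4d stood at 4.77, 4.53 and 4.53 against 4.94, 5.08 and 5.05, a difference of 0.42 ± 0.10 (limma adjusted p = 0.0163) that stayed under the limit of 0.5. The distance between the genotypes was thus widest for Zscan4f and narrowest for Zscan4d.

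Zfp352 was not called in ES. It was at 2.77, 2.65 and 2.47 in het and at 2.56, 2.66 and 2.85 in hom ΔPG samples, with overlapping groups and a difference of 0.06 ± 0.14 (95% interval -0.26 to 0.38, limma adjusted p = 0.804).

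Base composition moved with this comparison. Over the 11904 genes whose mean rlog value reached 3, the hom minus het difference in ΔPG ES fell with exonic GC content (Pearson r = -0.71, across genes, which are not independent), and the 1037 genes with a GC content within the range of the 4 genes had a median difference of 0.33. The 4 genes have a GC content of 42.1% to 44.22%. With this trend subtracted, the difference was 0.71 for Zscan4f (limma adjusted p = 0.000214), which stayed called, 0.26 for Zscan4c (adjusted p = 0.161), 0.06 for Zscan4d (adjusted p = 0.774) and -0.22 for Zfp352 (adjusted p = 0.273). In the other 3 comparisons of genotypes r lay between -0.00108 and 0.115, and the median of the genes in that GC range between -0.02 and 0.01.

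In RA the same ΔPG comparison gave a difference for all 3 Zscan4 genes. Of the 4 genes, 3 were called higher in hom cells and none lower, against 0.241% of all genes called higher and 0.605% called lower. The hom samples of all 4 lay above the het samples, as for 9.93% of all genes.

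Zscan4c was at 6.45, 6.29 and 6.33 in het and at 7.36, 7.02 and 7.12 in hom samples, a log2 difference of 0.81 ± 0.09 (limma adjusted p = 0.000947). Zscan4d was at 7.01, 6.92 and 6.97 against 8.01, 7.80 and 7.52, which is 0.81 ± 0.10 (adjusted p = 0.00213, limma). The hom samples spread more widely than the tightly placed het samples, without reaching them. Zscan4f was at 5.85, 5.44 and 5.42 against 6.21, 6.45 and 6.16, a difference of 0.70 ± 0.13 (limma adjusted p = 0.0183). This call was lost without hom replicate 2 (0.61, adjusted p = 0.129). Zfp352, at 4.44, 4.23 and 4.44 against 4.61, 4.82 and 4.94, differed by 0.42 ± 0.13 (limma adjusted p = 0.148) and was not called, while without hom replicate 1 it was (0.51, adjusted p = 0.0836).

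ΔG cells keep the promoter of 5430416N02Rik, and there the Zscan4 genes were lower in hom than in het cells. In ES, 2 of the 4 genes, Zscan4d and Zscan4c, were called lower and none higher, where 0.630% of all genes were called lower and 0.354% higher. Hom samples lay below het samples for the 3 Zscan4 genes, as for 9.00% of all genes.

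Zscan4d was at 5.20, 5.08 and 5.25 in het and at 4.12, 4.23 and 4.23 in hom ΔG samples, a log2 difference of -0.99 ± 0.09 (limma adjusted p = 0.00213). Zscan4c was at 5.08, 4.79 and 4.79 against 4.13, 4.29 and 4.23, which is -0.67 ± 0.11 (adjusted p = 0.0256, limma). Without hom replicate 1, the lowest sample, the call on Zscan4c was lost (-0.63, adjusted p = 0.11). Zscan4f was at 4.42, 4.64 and 4.11 against 3.49, 3.98 and 4.04, and its difference of -0.56 ± 0.19 (limma adjusted p = 0.212) was not called, although the groups stood apart by a narrow gap. Zfp352 overlapped, at 3.36, 3.51 and 3.57 against 3.20, 3.47 and 3.01, with a difference of -0.25 ± 0.13 (95% interval -0.57 to 0.06, limma adjusted p = 0.456).

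After RA all 4 genes were called lower in hom ΔG cells, where 1.46% of all genes were called lower and 0.676% higher. Their hom samples all lay below their het samples, as for 11.7% of all genes. Zfp352 showed a clear difference of genotypes in this comparison, at 5.95, 5.88 and 5.94 in het and at 5.11, 4.94 and 5.15 in hom samples (-0.86 ± 0.11, limma adjusted p = 2.29e-05). Zscan4d was at 8.49, 8.50 and 8.52 against 7.73, 7.68 and 7.70, which is -0.80 ± 0.06 (adjusted p = 2.61e-08, limma), with both groups spread over less than 0.1.

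Zscan4c was at 7.74, 7.71 and 7.86 against 6.98, 7.12 and 6.95, a log2 difference of -0.75 ± 0.08 (limma adjusted p = 1.66e-06). Zscan4f was at 7.23, 6.85 and 7.45 against 6.62, 6.55 and 6.39 (-0.66 ± 0.12, limma adjusted p = 0.000886). Its het replicate 2 was the nearest to the hom samples.

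**Figure D3:**
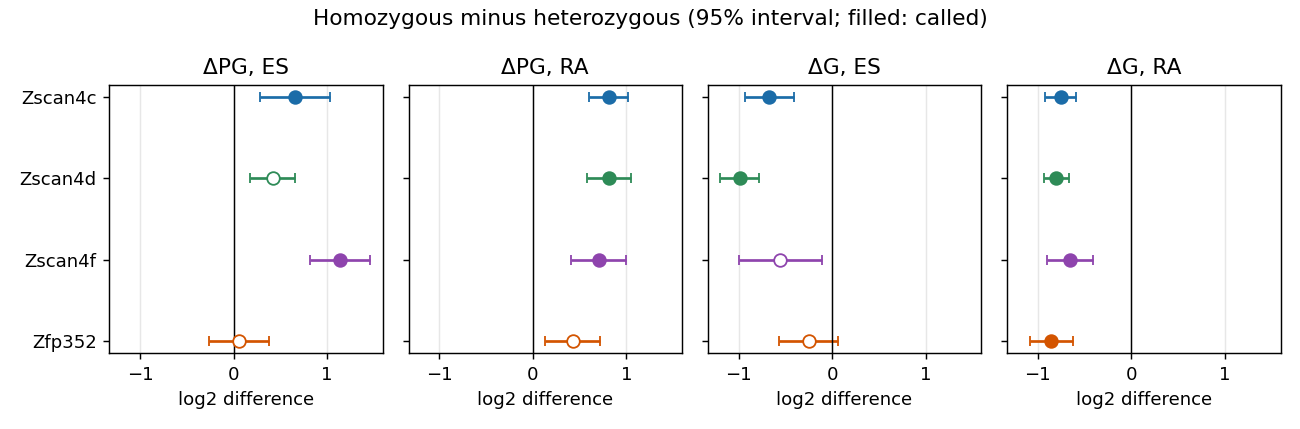
Homozygous minus heterozygous log2 difference of each gene with its 95% interval from limma, for ΔPG and ΔG cells in ES and RA (n = 3 against 3 in each panel), with filled points for called genes. The 3 Zscan4 genes lie right of 0 in both ΔPG panels and left of 0 in both ΔG panels, between 0.42 and 1.14 and between -0.99 and -0.56.

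Whether the difference between genotypes changed with RA was tested by an interaction term fitted to all 12 samples of a line. In ΔPG none of the 4 genes was called in limma, where 13.9% of all genes were called either way. At an unadjusted p under 0.05, 2 were, Zscan4d with a change of 0.39 ± 0.15 (limma adjusted p = 0.0818) and Zscan4f with -0.44 ± 0.20 (adjusted p = 0.142, limma). Both stayed under the log2 limit of 0.5. Zfp352 had a value of 0.37 ± 0.20 (limma adjusted p = 0.232) and Zscan4c of 0.16 ± 0.19 (limma adjusted p = 0.674). Across genes the ΔPG interaction rose with exonic GC content (Pearson r = 0.69), and genes in the GC range of the 4 had a median of -0.32. With the GC trend subtracted, 3 of the 4 genes were called, Zscan4d at 0.75 (adjusted p = 0.000373), Zfp352 at 0.64 (adjusted p = 0.0201) and Zscan4c at 0.54 (adjusted p = 0.0259). In ΔG, 1 was called, Zfp352 with -0.60 ± 0.18 (limma adjusted p = 0.0677), where 2.38% of all genes were called. That call was lost in 9 of the 12 fits that left out 1 sample, with adjusted p up to 0.209. The other 3 lay between -0.10 and 0.18 and were not called.

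RA raised all 4 genes in each of the 4 line and genotype groups, with every RA sample above every ES sample. In ΔPG het cells 18.0% of all genes were called higher and 13.6% lower, in ΔPG hom cells 16.5% and 11.3%, in ΔG het cells 17.7% and 11.7%, and in ΔG hom cells 17.0% and 12.1%. RA samples stood above ES samples for 30.6%, 29.7%, 31.2% and 29.2% of all genes in these groups. These comparisons use the same samples as those of the genotypes, and the sample values are those given above.

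Zscan4d, which had the widest range in ΔG, rose there by 3.33 ± 0.08 in het and by 3.51 ± 0.10 in hom cells on the log2 scale (limma adjusted p = 8.96e-13 and 2.92e-15), and in ΔPG by 2.36 ± 0.08 and 2.75 ± 0.12. Zscan4c rose by 2.25 ± 0.16 in het and 2.41 ± 0.10 in hom ΔPG cells, and by 2.88 ± 0.10 and 2.80 ± 0.11 in ΔG. For Zscan4f the rise was 2.55 ± 0.14 and 2.11 ± 0.14 in ΔPG, and 2.79 ± 0.16 and 2.68 ± 0.14 in ΔG. Zfp352 had the smallest rise of the 4 in each group on the fitted means, with 1.74 ± 0.13 and 2.10 ± 0.16 in ΔPG, and 2.44 ± 0.11 and 1.84 ± 0.14 in ΔG, although in ΔPG hom cells it lay within the error of Zscan4f. Over all 16 values the adjusted p of limma was 1.83e-05 or lower.

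**Figure D4:**
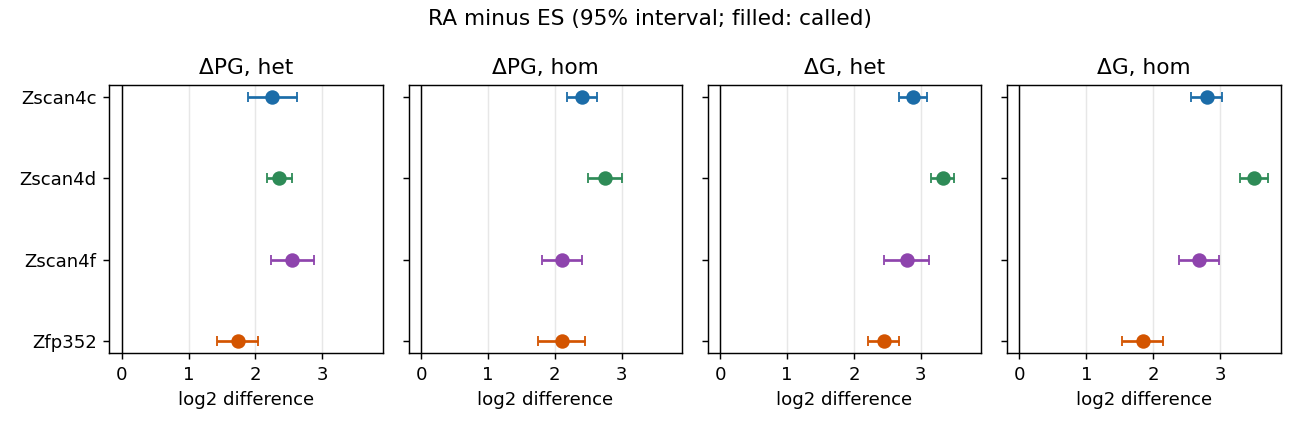
RA minus ES log2 difference of each gene with its 95% interval from limma, in het and hom cells of both lines (n = 3 against 3 in each panel), where every point is filled, since all were called. The values run from 1.74 for Zfp352 in ΔPG het cells to 3.51 for Zscan4d in ΔG hom cells.

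Markers of other cell types were also higher in RA. All 12 primitive endoderm markers were called higher in RA in the 4 groups, and their summed level (2 to the rlog value, summed over the list) lay between 1158 and 1789.7 in ES and between 5837 and 12206 in RA samples. Of 8 feeder fibroblast markers 5 to 7 were called higher and at most 1 lower, with sums of 66.6 to 93.5 in ES and 633 to 1062 in RA. According to the paper the D3 cells had no feeder layer, so these genes are not read as a sign of feeder cells. Of 9 trophectoderm markers 5 were called higher and 1 or 2 lower, with sums of 337 to 579 in ES and 3592 to 4772 in RA. None of these markers was at 0 in all samples of a table. Between genotypes in RA, 7 of 12 primitive endoderm markers were called lower in hom ΔPG cells and 5 of 12 in hom ΔG cells, where 0.605% and 1.46% of all genes were. Among these markers was Lama1, a laminin chain, in both lines (-0.95 and -1.03). The summed level of the primitive endoderm markers in RA was 9614 to 9745 in het against 5837 to 5965 in hom ΔPG samples. In ΔG it was 11818 to 12206 against 7763 to 7911, so that it was lower in hom cells of both lines. The trophectoderm markers had summed levels in RA of 4413 to 4523 in het against 3592 to 3871 in hom ΔPG samples. In ΔG the sums were 3709.8 to 4013 against 4681 to 4772. These sums were thus lower in hom ΔPG and higher in hom ΔG cells. Between genotypes in RA none of the 9 was called in ΔPG in limma, with an unadjusted p under 0.05 for 4, and 2 were called higher in hom ΔG cells. The feeder fibroblast markers had sums in RA of 754 to 790 in het against 720.2 to 736 in hom ΔPG samples. In ΔG the sums were 996 to 1062 against 633 to 675, and 1 of 8 was called lower in hom cells of each line. A sum is set mostly by the genes with high values. Of the 8 genes, 4 had a difference above 0 in ΔPG RA (median 0.05) and 1 in ΔG RA (median -0.14). The part of these marker lists in the values of the Zscan4 genes and Zfp352 was not tested.

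The other Zscan4 genes with a row, Zscan4b, Zscan4e and Zscan4-ps2, had differences of the same sign as the 3 above, with which they share sequence. In ΔPG ES all 3 were called higher in hom cells, at 0.51 (Zscan4b), 0.53 (Zscan4e) and 0.55 (Zscan4-ps2). This is the comparison with the GC trend, and with that trend subtracted none of them was called, at 0.25 for Zscan4b (limma adjusted p = 0.221), 0.26 for Zscan4e (adjusted p = 0.168) and 0.13 for Zscan4-ps2 (adjusted p = 0.528). In ΔPG RA, Zscan4e (0.76) and Zscan4-ps2 (0.57) were called higher and Zscan4b (0.39) was not. In ΔG ES none of the 3 was called in limma, with values of -0.53 to -0.34 and an unadjusted p under 0.05 for all 3, and in ΔG RA all 3 were called lower, at -0.90 to -0.78. RA raised all 3 in each group, by 1.65 to 2.86.

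Further transcripts known from the two-cell-like state were counted from a list of 45 symbols, with 27 tested in ΔPG and 28 in ΔG. In ΔPG, hom cells had 6 called higher in ES and 5 in RA, and none lower. Of all genes, 6.87% were called higher in ES and 0.241% in RA, and 6.29% and 0.605% lower. The median difference of the list was 0.15 in ES and 0.40 in RA against 0.00 and 0.01 over all genes. The ES median was below the 0.33 of the 1037 genes in the GC range of the members, all with a mean rlog of 3 or more. The 2 medians cover unlike sets, since the list was not chosen by GC content and also holds lower genes with shrunken values. With the GC trend subtracted, 2 of the 15 list genes at a mean rlog of 3 or more were called higher in ES, with a median of 0.09. In ΔG, hom cells had 3 called lower in ES and 16 in RA, and none higher, where 0.630% and 1.46% of all genes were called lower. The medians were -0.14 and -0.57 against -0.01 and 0.00 over all genes. The calls of the list had the sign of the Zscan4 differences in each comparison, with fewer of its genes called than not in 3 of the 4.

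Gm5662 was called in all 4, at 0.86 in ΔPG ES, 0.76 in ΔPG RA, -0.75 in ΔG ES and -1.03 in ΔG RA. In ΔPG ES it was joined at the top by Gm13119 (0.94) and Gm8300 (0.84). In ΔG RA Tdpoz4 (-1.21), a gene of a family with TRAF and BTB domains, and B020004J07Rik (-1.08) differed most. Between RA and ES, 20 of 27 were called higher in ΔPG het, 21 of 27 in ΔPG hom, 22 of 28 in ΔG het and 20 of 28 in ΔG hom cells. The genes called lower numbered 1 or 2, among them Patl2, which codes for an RNA-binding protein of oocytes (-2.46 to -1.81). Of all genes, 16.5% to 18.0% were called higher in these groups and 11.3% to 13.6% lower.

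**Figure D5:**
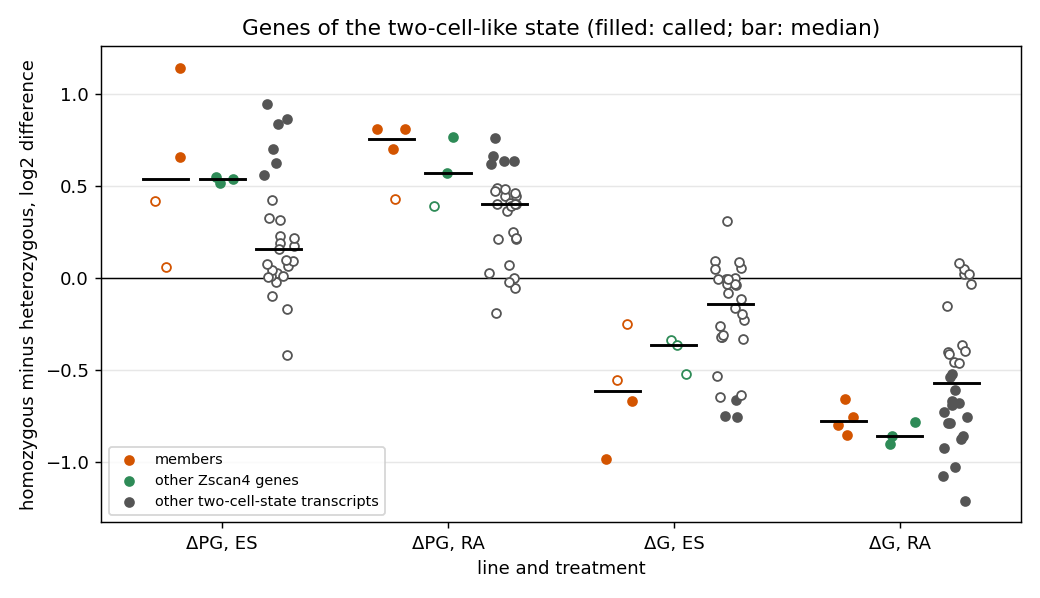
Homozygous minus heterozygous log2 difference of the 4 genes described here (orange, members), 3 other Zscan4 genes (green) and 27 or 28 other transcripts of the two-cell-like state (grey) in each line and treatment, with filled points for called genes and a black bar at the median of each list. The medians lie above 0 in both ΔPG columns, from 0.15 to 0.76, and below 0 in both ΔG columns, from -0.86 to -0.14.

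Dux, the factor upstream of many of these genes, had low values and was not called between genotypes. In ΔPG ES it was at 1.22, 1.34 and 1.24 in het and at 1.36, 1.34 and 1.29 in hom samples (0.07 ± 0.09, limma adjusted p = 0.691), and in ΔG ES at 2.40, 2.37 and 2.38 against 2.50, 2.36 and 2.56 (0.09 ± 0.09, limma adjusted p = 0.721). In RA its samples stood apart by genotype, with 0.25 ± 0.14 in ΔPG (limma adjusted p = 0.488), while the value in ΔG was -0.46 ± 0.14 (adjusted p = 0.052, limma), and neither was called. RA raised Dux by 0.55 in ΔPG het, 0.73 in ΔPG hom and 0.94 in ΔG het cells, all called, and its value of 0.40 in ΔG hom cells was under the limit (limma adjusted p = 0.0215). Dux is a repeated gene, so its reads are hard to place, and its rlog values are strongly shrunken.

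Trp53, whose protein p53 is known to activate Dux, was the activator with the largest difference between ΔPG genotypes. It was at 7.15, 6.95 and 7.05 in het and at 3.83, 4.00 and 4.24 in hom ES samples (-3.02 ± 0.12, limma adjusted p = 1.85e-06), and at 6.06, 6.19 and 5.87 against 4.06, 3.56 and 3.88 in RA (-2.21 ± 0.15, limma adjusted p = 3.43e-05). Trp53 was thus far lower in the ΔPG cells with the higher Zscan4 values. In ΔG it lay between 2.17 and 2.88 in all 12 samples and was not called between genotypes. Its part in the Zscan4 values was not tested.

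Of 6 measured activators of the state, Dppa2, a chromatin protein of pluripotent cells, was also called in ΔPG ES (0.65 higher in hom), and no other activator was called between the genotypes of either line. Between RA and ES, Rarg, a retinoic acid receptor, was called lower in all 4 groups (-1.72 to -1.22), and Rara, another receptor, was called higher in ΔG only (0.53 in het and 0.95 in hom cells), a difference between lines that was not tested. Of 29 repressors of the state, 6 were called higher and 1 lower in hom ΔPG cells in ES, against 6.87% and 6.29% of all genes. Rnf2, a Polycomb ubiquitin ligase, was at 1.05, Rif1, a regulator of replication timing, at 0.75 and Ehmt2, a histone methyltransferase, at -0.61. ΔPG ES is the comparison with the GC trend. With that trend subtracted Dppa2 was at 0.35 and Rnf2 at 0.40, under the log2 limit of 0.5, as was each of the 29 repressors. None of the 29 was called between genotypes in the other 3 comparisons in limma. There 7 (ΔPG RA), 9 (ΔG ES) and 9 (ΔG RA) had an unadjusted p under 0.05, a share not counted over all genes. Between RA and ES, 11 were called lower in each of the 4 groups, where 11.3% to 13.6% of all genes were. Those called higher numbered 2 to 5, where 16.5% to 18.0% of all genes were. Zfp42, itself a marker of pluripotent cells, led the lower ones (-3.74 to -3.17).

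The genes with the most similar profile over the 12 samples of a table were ranked by Pearson's r with the mean centred profile of the 3 Zscan4 genes, among 5954 (ΔPG) and 5077 (ΔG) genes with a range of at least 1. The 12 points share the split into RA and ES, which alone gives many genes a high r. In ΔPG the first 5 were Gm5662 (0.994), Gm13109 (0.994), Zscan4e (0.993), Stxbp4 (0.993) and Zscan4-ps2 (0.993). In ΔG they were Pag1 (0.996), Gpc3 (0.995), Lgals4 (0.995), Rxra (0.995) and Maged1 (0.994), and the other Zscan4 genes had ranks 51 to 81. Zscan4b had rank 30 in ΔPG (0.984), and Zscan4b, Zscan4e and Zscan4-ps2 had r values of 0.988 to 0.990 in ΔG. The ranks thus separate r values that lie close together, and no difference between the lines is read from them. For Zfp352 the first 5 were Grifin, Spesp1, Tdpoz4, Lmx1a and Hoxb1 in ΔPG (r from 0.992 to 0.995) and Fgf1, BB287469, Kif26b, Lama1 and Ptpn3 in ΔG (r from 0.993 to 0.996).

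Within the groups the 4 genes varied together only in part, more so in some pairs of Zscan4 genes than in pairs with Zfp352. The correlation of their deviations from the group means over the 12 samples of a table lay between -0.18 and 0.66 in ΔPG and between -0.27 and 0.45 in ΔG for the 6 pairs, with the highest values for Zscan4c and Zscan4d in ΔPG and for Zscan4c and Zscan4f in ΔG. Zfp352 had values of -0.27 to 0.15 with each Zscan4 gene.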

How the data were processed

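RNA was read with a stranded total RNA kit after ribosomal depletion, in paired reads of 100 bases. Per the labels and methods, the authors aligned reads with TopHat2 (2.1.0) to NCBI37/mm9, removed duplicates with Picard, counted reads per GENCODE gene with HTSeq (0.6.0), and deposited rlog values on the log2 scale from DESeq2 (1.14.1), in 1 table per line. Whether the transformation used the groups is not stated. These values carry no counts, so depth is unknown, no interval for counting error can be given, and limma took the place of a count test.

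R 4.3.3 with limma 3.58.1 (lmFit, then eBayes with its trend option) was run on all varying genes over the 6 samples of a comparison, or 12 for an interaction. Python 3.11.15 with Biopython 1.88 aligned promoters. The named genes are all members with a row, list members as counts with at most 4 examples per list and comparison, Dux and Trp53, and the 5 genes with the most similar profile. Members and lists were chosen with earlier results of these data known. The fits were tested on simulated data. Alternatives were all 12 samples in the fit, quantile normalization, filters at a mean rlog of 1 and 3, no variance trend, stricter limits, a replicate block, removal of the GC trend (lowess) and leaving out each sample. Regions from 4C-seq, and Capture-C and RIP-seq samples, were not used here.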

Additional observations from a re-analysis of the deposited data

Results flagged for a closer look

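The difference between genotypes pointed in opposite directions in the 2 lines, with every hom sample above every het sample in ΔPG and below in ΔG. In ES this held for Zscan4c (0.65 in ΔPG and -0.67 in ΔG, log2), Zscan4d (0.42 and -0.99) and Zscan4f (1.14 and -0.56). With the trend on GC content subtracted, the ΔPG values in ES were 0.26 for Zscan4c (limma adjusted p = 0.161), 0.06 for Zscan4d (adjusted p = 0.774) and 0.71 for Zscan4f (adjusted p = 0.000214). In RA it held for Zscan4c (0.81 and -0.75), Zscan4d (0.81 and -0.80), Zscan4f (0.70 and -0.66) and Zfp352 (0.42 and -0.86). The difference between the lines was not tested, since the tables were normalized separately, and the 3 Zscan4 genes share sequence. In ΔG, the difference between genotypes of Zfp352 was larger in RA than in ES (interaction -0.60, limma adjusted p = 0.0677), a call that was lost in 9 of the 12 fits that left out 1 sample (adjusted p up to 0.209) and under stricter limits.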

How the results depend on the processing

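Of the 4 genes with a row, the RA against ES calls (4 in each group) kept their number and direction under every alternative tried. With the GC trend removed, with or without the replicate block, the genes called in ΔPG ES fell from 2 to 1 and Zfp352 turned to -0.22 there, while the ΔPG interaction called 3 in place of 0, and all genes called in ΔPG ES fell from 1510 higher and 1383 lower to 535 and 330. Stricter limits (adjusted p under 0.05, fold over 1.5) left 0 in the ΔG interaction in place of 1.

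Leaving out 1 sample gave 0 to 1 called genes in the ΔPG interaction, 1 to 2 in ΔG ES and 0 to 1 in the ΔG interaction. In the same fits the uncalled Zfp352 difference ran from -0.022 to 0.13 in ΔPG ES and from -0.37 to -0.15 in ΔG ES, the Zscan4c interaction in ΔPG from -0.0095 to 0.31, and the Zscan4f interaction in ΔG from -0.28 to 0.035. In ΔPG the interaction gained its call in turn from Zscan4f (without hom ES replicate 2 or hom RA replicate 2) and Zscan4d (without hom RA replicate 3).

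Samples with the same replicate number deviated together weakly at most (largest r 0.0855). Between het and hom ΔPG ES samples, r for replicates 1 to 3 was 0.0855, 0.0103 and 0.0488. Each was above the values of the same het sample with hom samples of other numbers (highest -0.0266, -2.5e-05 and 0.0159). Whether the numbers mark a pairing was not tested. The replicate block left 1 of the 2 calls in ΔG ES, where Zscan4c had a limma adjusted p of 0.2, and 2 of 3 in ΔPG RA, where Zscan4f had 0.105, and moved no other count of these genes by over 1.5 times. Zscan4f also lost its call in ΔPG RA without a variance trend (0.105) and in ΔG RA with quantile normalization (0.13). In ΔG ES it stayed uncalled in 10 of 15 alternatives and gained a call in the others, with a limma adjusted p down to 0.00859. Among those were all 12 samples in the fit (0.025) and filters at a mean rlog of 1 (0.0429) or 3 (0.00904). Quantile normalization moved the split of all calls from 78 higher and 139 lower to 69 and 76 in ΔG ES, and in RA against ES from 3634 and 2482 to 2864 and 2960 (ΔPG hom), from 3911 and 2588 to 3042 and 3304 (ΔG het) and from 3759 and 2675 to 2941 and 3305 (ΔG hom). The causes were not tested. Depth is unknown, and 3 samples per group, shrunken values and shared Zscan4 sequence limit each single-gene value.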
